A study of Mus musculus with 6 samples.

Results

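Chemokines and their receptors were examined in 2 stromal fractions of mouse bone marrow, as 54 of the 19938 genes measured. The 54 were every gene with a probe set of exactly 1 symbol whose symbol is that of a numbered CC, CXC, CX3C or XC ligand, of a receptor for one of these, or of an atypical chemokine receptor. Cxcl12 was left out by that rule, and for each gene the probe set with the highest mean over the 6 arrays was read. They comprise 33 ligands and 21 receptors. The 7 probe sets that name copies of the Ccl21 and Ccl27 genes together were not used.

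The samples were marrow cells that lacked CD45, a leukocyte marker, and Ter119, a marker of the red cell lineage, but bore CD73, an adenosine-producing enzyme of the cell surface. Sorting by CD105 (endoglin) gave 3 samples of CD73+CD105+ cells and 3 of CD73+CD105- cells, from dissociated primary tissue straight into lysis buffer, with 1 array per sample. Both fractions share the negative gates and CD73, and no treatment other than dissociation is given. The labels call the samples biological replicates and give no strain, age or source animal, so the p-values speak only of how these samples vary.

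Chemokines are small secreted or membrane-anchored proteins that steer cell movement through G protein-coupled receptors, and stromal and endothelial cells of the marrow use them to hold leukocytes in place or release them to blood. Atypical receptors bind chemokines without the usual G protein signal and take them up, carry them across endothelium or clear them. Leukocytes carry most of the signalling receptors, while stroma and endothelium are known sources of ligands and of atypical receptors.

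Values are log2 expression after RMA, a normalization across arrays, with array medians between 6.27 and 6.35, and every difference subtracts CD73+CD105- from CD73+CD105+ on that scale. As a yardstick of dim signal, the 95th percentile of the mean values of 1178 olfactory and vomeronasal receptor genes was 6.02, called the odorant receptor level here. Differences were tested with limma over all 19938 genes, with Benjamini-Hochberg adjustment and a threshold of 0.05, and having 3 arrays per fraction limits the precision (median SE of a difference 0.0928). Eng, which encodes CD105, averaged 8.06 ± 0.25 in CD73+CD105+ cells and 6.30 ± 0.21 in CD73+CD105- cells (SD, n = 3 each, limma adjusted p = 0.00322). Ptprc, which encodes CD45, averaged 4.70 ± 0.06 in CD73+CD105+ cells and 4.71 ± 0.05 in CD73+CD105- cells. For each gene the 2 arrays numbered replicate 1 averaged almost the same as the remaining 4 (SD of that difference over genes 0.0423, against 0.122 or more for every other pair made of 1 array from each fraction), a relation that no label describes, so differences within replicate 1 and within replicates 2 and 3 are given beside the results. The main fit treats all 6 arrays as free to vary and leaves this relation out, so its p-values may be too small.

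Of the 54 genes, 2 rose in CD73+CD105+ cells, the atypical receptor gene Ackr1 and the ligand gene Ccl19, and 0 fell. That is 3.70% of the genes, against a background of 1.82% of all genes past the threshold in either direction, 1.35% higher and 0.466% lower. At an unadjusted p under 0.05 in limma 14 of the 54 differed, 10 higher and 4 lower, or 25.9% against 17.7% of all genes (8.58% higher and 9.09% lower). The 2 groups of 3 arrays did not overlap in 11 genes that were higher and 6 that were lower, or 31.5% against 23.7% of all genes (10.7% higher and 12.9% lower). These shares of all genes are also the background for the counts by list below. The median difference of the 54 genes was 0.04, against -0.02 over all genes.

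Many genes of the family were dim, and the median absolute difference of the 54 was 0.111, against 0.105 over all genes. Among genes above the odorant receptor level in at least 1 fraction it was 0.207 for the family, against 0.123 for all genes. Such genes enter through whichever fraction is higher, so that choice is not independent of the size of the difference. Of them, 24 of 26 in the family and 12378 of 12995 over all genes lay above the level in both fractions. In 28 of the 54 genes both group means lay below the odorant receptor level, and 26 (48.1%) lay above it in at least 1 fraction, against 65.2% of all genes. The differences of the 28 dim genes ran from -0.27 to 0.40. For 51 of the 54 genes the 95% interval of the difference, not adjusted for the number of genes, lay wholly inside a 2-fold change in either direction. The exceptions were Ackr1, Ccl19 and Cxcl9, and the share of such intervals over all genes was not counted.

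**Figure D1:**
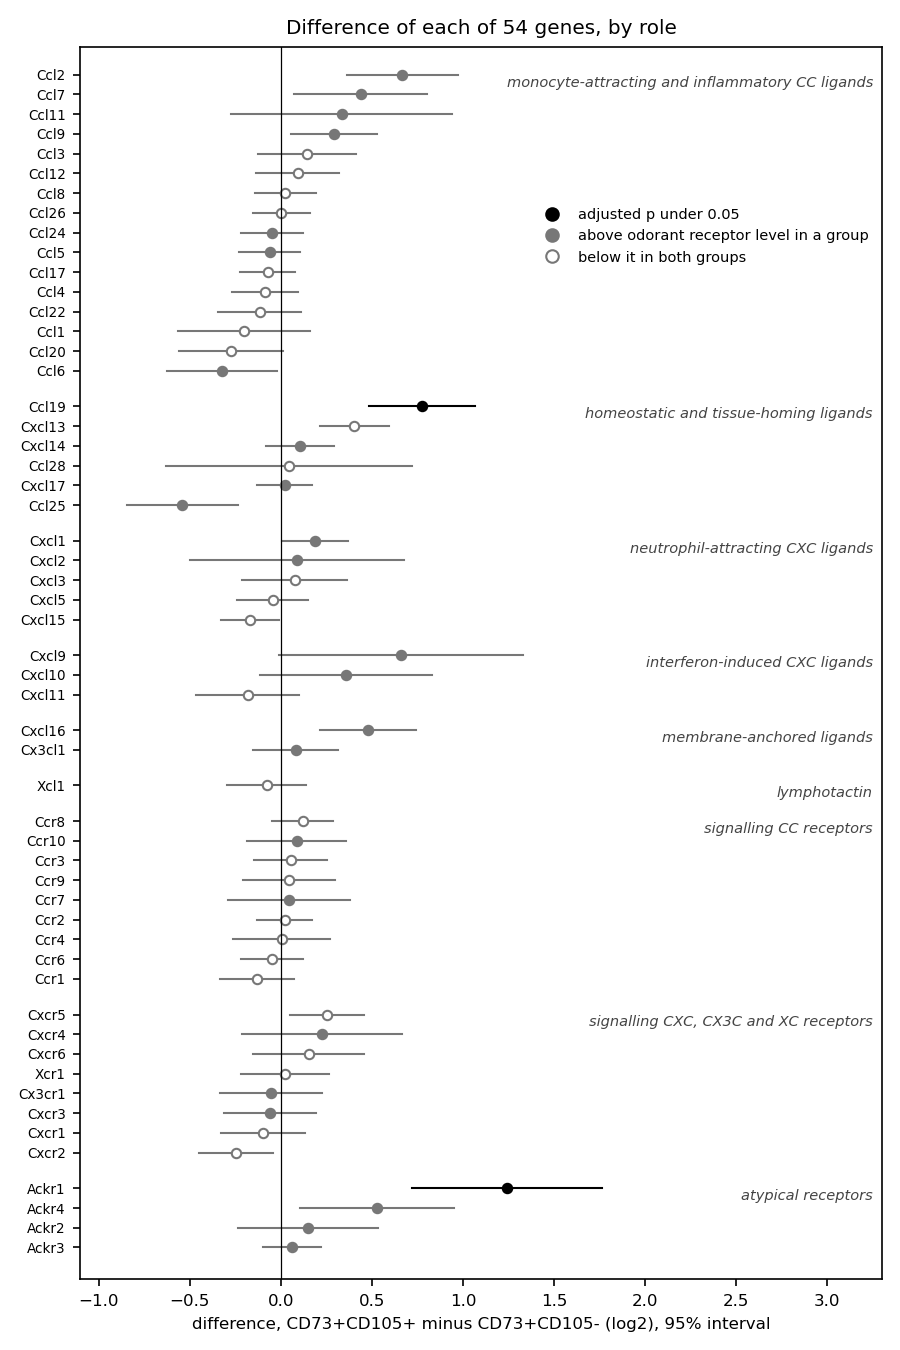
Difference of each of the 54 genes (log2, CD73+CD105+ minus CD73+CD105-) with its 95% interval from limma, grouped by role. Black points passed an adjusted p of 0.05 (Ackr1 and Ccl19), grey points lay above the odorant receptor level of 6.02 in at least 1 fraction, and open points lay below it in both.

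Cxcl10, Ccr6 and Cxcl14 each hold 2 of the 3 motifs searched, and none of these genes passed in limma. The promoter letters of the 2 genes that rose, and of Cxcl10 as an example, are shown from RefSeq (GRCm38.p6) as the 250 bases before the annotated start. All 3 lie on the minus strand and are written 5′ to 3′ along the gene, Ackr1 at chr1:173333504-173333753, Ccl19 at chr4:42756366-42756615 and Cxcl10 at chr5:92348890-92349139. Capitals mark matches to GGGANTTCC, a form of the NF-kB site, to GAAA and GAAA set 2 bases apart, a form of the interferon response element, or to TTCNNNGAA, a form of the STAT site, on either strand. Other forms of these sites were not searched, so small letters do not mean that a stretch is free of them.
Ackr1: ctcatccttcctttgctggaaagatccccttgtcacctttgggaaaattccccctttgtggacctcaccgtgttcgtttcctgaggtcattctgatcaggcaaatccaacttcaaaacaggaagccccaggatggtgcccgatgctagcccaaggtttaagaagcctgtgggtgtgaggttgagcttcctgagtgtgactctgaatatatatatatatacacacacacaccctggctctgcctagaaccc
Ccl19: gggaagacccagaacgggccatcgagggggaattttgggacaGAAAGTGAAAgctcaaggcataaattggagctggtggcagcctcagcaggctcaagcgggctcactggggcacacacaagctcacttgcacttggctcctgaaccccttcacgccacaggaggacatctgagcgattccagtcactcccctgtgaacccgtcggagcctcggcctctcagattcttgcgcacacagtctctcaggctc
Cxcl10: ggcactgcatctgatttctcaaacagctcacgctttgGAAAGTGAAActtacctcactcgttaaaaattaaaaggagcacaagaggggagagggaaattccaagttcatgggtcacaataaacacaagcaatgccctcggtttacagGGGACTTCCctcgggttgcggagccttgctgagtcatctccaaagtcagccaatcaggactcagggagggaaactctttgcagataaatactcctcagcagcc

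Promoter windows of 300 bases, the last 50 of them after the start, were matched by symbol for 40 of the 54 genes, as 42 windows. Ccl2 was among the genes without a window. The NF-kB letters stood in 4 of the 42 (9.52%), against 1.68% of the 32851 windows of all genes, in Ccl25, Ccr6, Cxcl9 and Cxcl10. The interferon letters stood in 3 (7.14%, against 3.44%), in Ccl19, Cxcl10 and Cxcl14. The STAT letters stood in 3 (7.14%, against 8.30%), in Ccl17, Ccr6 and Cxcl14. In Ccr6 the NF-kB letters matched on both strands at overlapping places. Of the genes with a match only Ccl19 passed the test of expression, and Ackr1 held none of the 3 motifs in its window.

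Among the 4 atypical receptors, all above the odorant receptor level in both fractions, 1 rose, 0 fell and 3 did not pass. That is 25% past the threshold, from 1 gene, against 1.82% of all genes. Ackr1, also called the Duffy antigen receptor, binds many inflammatory CC and CXC chemokines and is known from red cells and from the endothelium of venules. Ackr1 stood at 7.79, 7.21 and 7.48 in replicates 1, 2 and 3 of CD73+CD105+ cells, against 5.96, 6.07 and 6.71 in CD73+CD105- cells. The groups did not overlap, and replicate 3 was the highest of the CD73+CD105- arrays. The difference was 1.24 (SE 0.22, 95% interval 0.72 to 1.77, adjusted p = 0.044), which is 2.37-fold, with means of 7.49 ± 0.29 and 6.25 ± 0.40 (SD, n = 3 each). It was 1.82 in replicate 1 and 0.95 in replicates 2 and 3, with an adjusted p of 0.106 when a term for replicate 1 was in the fit and of 0.345 in replicates 2 and 3 alone. Leaving out any 1 array except CD73+CD105- replicate 3 ended the call (adjusted p = 0.0514 to 0.138), and without that array it was 0.0262.

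Markers of endothelium moved in the same direction, as did most markers of reticular stroma and of pericytes and smooth muscle, given below. Of 12 pan-endothelial genes 10 rose and 0 fell, with a median difference of 2.11, and their summed linear values were 4223 to 5401 in CD73+CD105+ arrays, against 1072 to 1267 in CD73+CD105- arrays. The junction gene Pecam1 averaged 9.32 ± 0.29 in CD73+CD105+ cells and 5.69 ± 0.32 in CD73+CD105- cells, and the sialomucin gene Emcn 9.19 ± 0.28 and 4.58 ± 0.54, both below the odorant receptor level in CD73+CD105- cells. The part of endothelial cells in the Ackr1 difference was not tested, and in these bulk samples fewer cells of a type and less RNA per cell cannot be told apart. Of 5 red cell lineage genes, the other known source of Ackr1, 0 passed in limma (1 at an unadjusted p under 0.05), and their summed linear values were 1178 to 1880 in CD73+CD105+ arrays, against 1792 to 2370 in CD73+CD105- arrays. Most of each sum came from Tfrc, the transferrin receptor gene, which cells other than red cells also express (difference -0.62, adjusted p = 0.203). Without it the 4 other genes summed to 256 to 281 in CD73+CD105+ arrays, against 270 to 294 in CD73+CD105- arrays, and their group means ran from 5.62 to 6.41, around the odorant receptor level.

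The other atypical receptors did not pass. Ackr4, which clears Ccl19 and Ccl25, stood at 8.44, 8.46 and 8.71 in CD73+CD105+ cells, against 8.19, 7.59 and 8.24 in CD73+CD105- cells, where replicate 2 was low. The groups did not overlap and the difference was 0.53 (SE 0.18), which did not pass (adjusted p = 0.194). Ackr3, which takes up Cxcl12, was nearly level across all 6 arrays, at 9.15, 9.10 and 9.14 in CD73+CD105+ cells, against 9.03, 9.14 and 9.04 in CD73+CD105- cells. Its difference of 0.06 had a 95% interval of -0.10 to 0.22. Ackr2, which clears inflammatory CC chemokines, averaged 7.46 ± 0.25 in CD73+CD105+ cells and 7.31 ± 0.24 in CD73+CD105- cells (difference 0.15, adjusted p = 0.684).

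Of 6 measured homeostatic and tissue-homing ligands 1 rose, 0 fell and 5 did not pass, or 16.7% past the threshold against 1.82% of all genes. Ccl19 draws T cells and dendritic cells through Ccr7 and is known from reticular stroma of lymphoid organs. Ccl19 stood at 9.34, 9.20 and 9.41 in CD73+CD105+ cells, against 8.60, 8.73 and 8.29 in CD73+CD105- cells. The lowest CD73+CD105+ array lay 0.47 above the highest CD73+CD105- array. The difference was 0.78 (SE 0.12, 95% interval 0.48 to 1.07, adjusted p = 0.0316), or 1.71-fold, and was 0.74 in replicate 1 and 0.79 in replicates 2 and 3. With a term for replicate 1 the adjusted p was 0.0868, and in replicates 2 and 3 alone 0.329. Without CD73+CD105+ replicate 1 it was 0.116, without CD73+CD105+ replicate 3 it was 0.0981 and without CD73+CD105- replicate 1 it was 0.101, while the difference itself kept between 0.65 and 0.87 whichever array was left out.

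Ccl19 is read by 5 probe sets, which differed by 0.78 to 0.81, and 2 of the 5 hold identical values. The reference table lists 3 Ccl19 pseudogenes beside the gene, and the array values do not separate these copies. Ccr7, the signalling receptor for Ccl19, was at 6.80 ± 0.17 in CD73+CD105+ cells and 6.76 ± 0.24 in CD73+CD105- cells, with a difference of 0.04 (adjusted p = 0.906). Markers of Lepr-expressing reticular stroma moved with Ccl19: 5 of 8 rose, 0 fell, their median difference was 0.81, and their summed linear values were 3423 to 4123 in CD73+CD105+ arrays, against 2059 to 2320 in CD73+CD105- arrays. Foxc1 of that list had a difference of -0.17. The move was not particular to that list, as medians were 2.11 for pan-endothelial, 0.62 for pericyte and smooth muscle and 0.43 for fibroblast genes. The chondrocyte median was -0.36. The part of reticular or any other cells in the Ccl19 difference was not tested.

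Ccl25, a ligand of Ccr9 best known from thymus and gut, was the member with the lowest difference. It stood at 6.24, 6.67 and 6.60 in CD73+CD105+ cells, against 7.20, 6.97 and 6.95 in CD73+CD105- cells, and the groups did not overlap. The difference of -0.54 (SE 0.13) did not pass (adjusted p = 0.0952) and was -0.96 in replicate 1 and -0.33 in replicates 2 and 3. A second Ccl25 probe set differed by -0.33. Ccr9 lay below the odorant receptor level in both fractions, with a difference of 0.04.

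Cxcl14, a ligand known from fibroblasts and epithelia, was bright and nearly equal in both fractions, at 10.14, 9.93 and 10.07 in CD73+CD105+ cells, against 9.88, 9.95 and 9.98 in CD73+CD105- cells. The groups overlapped and the difference was 0.11 (95% interval -0.08 to 0.29, adjusted p = 0.529). Cxcl13, which draws B cells through Cxcr5, averaged 5.70 ± 0.11 in CD73+CD105+ cells and 5.30 ± 0.06 in CD73+CD105- cells, below the odorant receptor level in both, with a difference of 0.40 (adjusted p = 0.0613). Ccl28 and Cxcl17, both known from mucosal tissues, differed by 0.04 and 0.02.

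**Figure D2:**
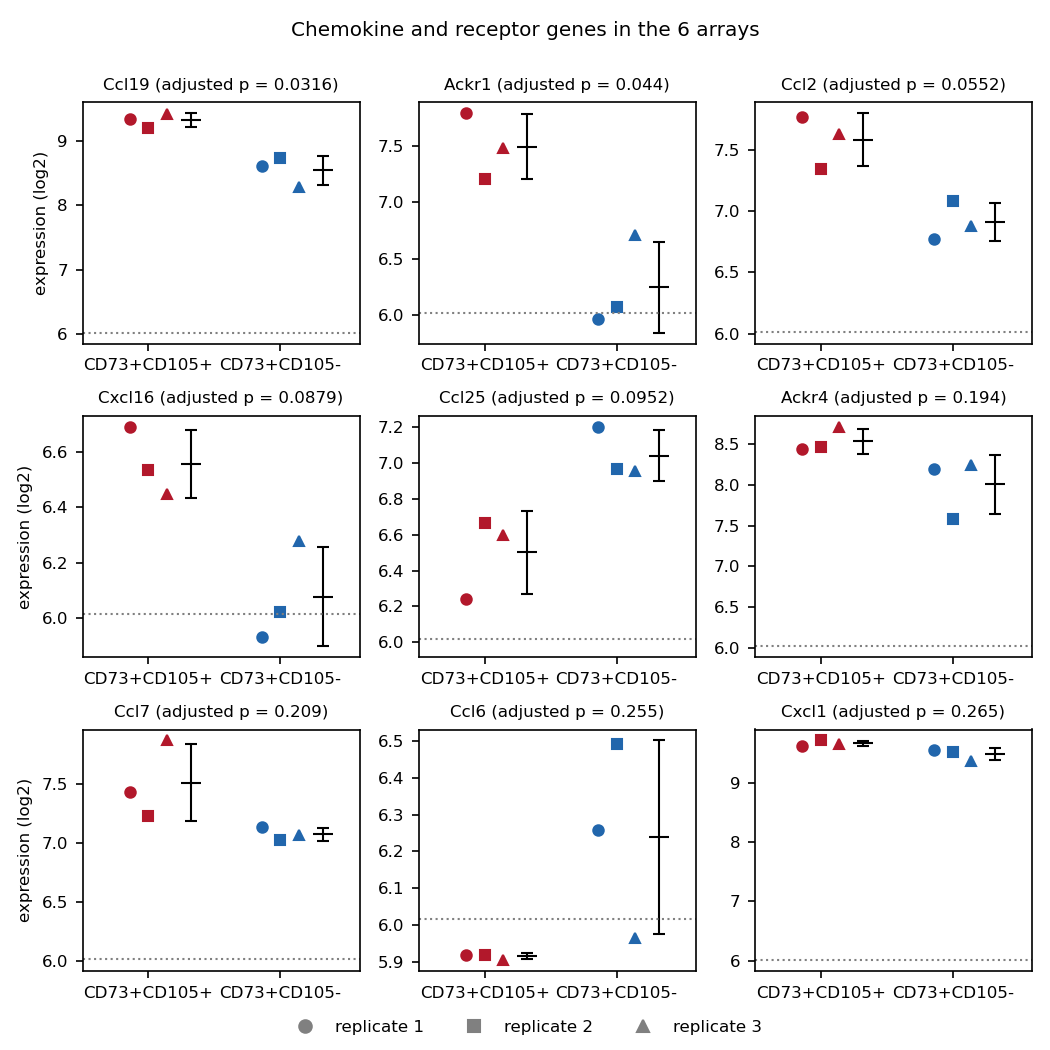
Expression (log2) in each array of the 9 genes with an unadjusted p under 0.05 and a mean above the odorant receptor level (dotted line, 6.02), CD73+CD105+ in red and CD73+CD105- in blue, with replicate 1 as circles, 2 as squares and 3 as triangles, and the mean ± SD beside them. The 3 arrays of one fraction lie apart from the 3 of the other in all 9 genes, which were chosen by their p, and the gap between groups is 0.50 for Ackr1 and 0.47 for Ccl19.

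Of 16 monocyte-attracting and inflammatory CC ligands 0 passed the adjusted threshold in limma, and 9 lay below the odorant receptor level in both fractions. At an unadjusted p under 0.05 in limma 3 were higher and 1 lower, or 25% against 17.7% of all genes. Ccl2 draws monocytes through Ccr2 and releases them from marrow. Ccl2 stood at 7.77, 7.34 and 7.63 in CD73+CD105+ cells, against 6.77, 7.08 and 6.88 in CD73+CD105- cells, with no overlap. Its difference was 0.67 (SE 0.13, 95% interval 0.36 to 0.97, adjusted p = 0.0552), or 1.59-fold, and was 0.99 in replicate 1 and 0.51 in replicates 2 and 3. It passed when CD73+CD105+ replicate 2 was left out (0.79, adjusted p = 0.0353) and with array weights (adjusted p = 0.0159). It also passed when only the 12995 genes above the odorant receptor level in at least 1 fraction were tested (adjusted p = 0.0454). Genes enter that set through whichever fraction is higher. The filter is therefore not independent of the difference, and that pass adds no support. With a term for replicate 1 the adjusted p of Ccl2 was 0.138, and in replicates 2 and 3 alone 0.404. Without replicate 1 of CD73+CD105+ cells it was 0.175, and without that of CD73+CD105- cells 0.178.

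Ccl2 lies in a run of neighbouring chemokine genes in the reference table, in the order Ccl2, Ccl7, Ccl11, Ccl12, Ccl8 and Ccl1. Along that order the differences were 0.67, 0.44, 0.33, 0.09, 0.03 and -0.20, and Ccl12, Ccl8 and Ccl1 lay below the odorant receptor level in both fractions. Ccl7, a second ligand of Ccr2, stood at 7.44, 7.23 and 7.87 in CD73+CD105+ cells, against 7.14, 7.03 and 7.07 in CD73+CD105- cells. The groups of Ccl7 did not overlap, and its difference of 0.44 (SE 0.15) did not pass (adjusted p = 0.209). Ccl11, the eosinophil attractant eotaxin, stood at 8.01, 7.42 and 8.32 in CD73+CD105+ cells, against 7.57, 7.23 and 7.95 in CD73+CD105- cells. In both fractions replicate 2 was the lowest Ccl11 array, the groups overlapped, and the difference of 0.33 had a 95% interval of -0.27 to 0.94.

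The second run of CC ligand genes, Ccl5, Ccl9, Ccl6, Ccl3 and Ccl4 in that order, went both ways, with differences of -0.06, 0.29, -0.32, 0.14 and -0.09. Ccl6, a rodent ligand of Ccr1, stood at 5.92, 5.92 and 5.90 in CD73+CD105+ cells, against 6.26, 6.49 and 5.96 in CD73+CD105- cells. The highest CD73+CD105+ array of Ccl6 lay 0.05 below the lowest CD73+CD105- array, near the odorant receptor level, and the difference did not pass (SE 0.13, adjusted p = 0.255). Ccl9, also a rodent ligand of Ccr1, averaged 6.12 ± 0.17 in CD73+CD105+ cells and 5.83 ± 0.09 in CD73+CD105- cells (adjusted p = 0.199). Ccl5, a T cell and monocyte attractant, averaged 6.32 ± 0.06 in CD73+CD105+ cells and 6.38 ± 0.06 in CD73+CD105- cells, and Ccl24, a ligand of Ccr3, 6.05 ± 0.07 and 6.10 ± 0.06.

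Of 5 neutrophil-attracting CXC ligands 0 passed the adjusted threshold in limma. At an unadjusted p under 0.05 in limma 1 was higher and 1 lower, or 40% against 17.7% of all genes. Cxcl1, which draws neutrophils through Cxcr2, was bright in every array, at 9.62, 9.71 and 9.65 in CD73+CD105+ cells, against 9.55, 9.52 and 9.36 in CD73+CD105- cells. The groups did not overlap, but the difference of 0.19 (SE 0.08) did not pass (adjusted p = 0.265), and its 95% interval of 0.01 to 0.37 lay well inside a 1.5-fold change. Cxcl2, a further Cxcr2 ligand, had 6.26, 6.60 and 6.57 in CD73+CD105+ cells, against 6.72, 6.67 and 5.77 in CD73+CD105- cells. Replicate 3 of CD73+CD105- cells was the lowest Cxcl2 array by a wide margin, and the difference of 0.09 had a 95% interval of -0.50 to 0.68. Cxcl3, Cxcl5 and Cxcl15 lay below the odorant receptor level in both fractions, with differences of 0.08, -0.05 and -0.17.

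Among 3 interferon-induced ligands of Cxcr3, 0 passed and 0 had an unadjusted p under 0.05 in limma. Cxcl10 stood at 8.76, 8.55 and 8.43 in CD73+CD105+ cells, against 8.21, 8.64 and 7.81 in CD73+CD105- cells, with overlap. Its difference was 0.36 (SE 0.20, adjusted p = 0.406). The neighbouring Cxcl9 stood at 7.81, 7.80 and 6.74 in CD73+CD105+ cells, against 6.69, 7.01 and 6.67 in CD73+CD105- cells. Replicate 3 of CD73+CD105+ cells lay among the CD73+CD105- values, and the difference of 0.66 (SE 0.28) did not pass (adjusted p = 0.289). Without that array the Cxcl9 difference was 1.02 with an adjusted p of 0.0325, which was the only 1 of 18 other settings where Cxcl9 passed. Over the 18 the Cxcl9 difference ran from 0.43 to 1.02, and its adjusted p in limma reached 0.757. Cxcl11 lay below the odorant receptor level in both fractions, with a difference of -0.18.

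Both ligands that are made with a membrane stalk lay above the odorant receptor level. Cxcl16, a ligand of Cxcr6, stood at 6.69, 6.53 and 6.45 in CD73+CD105+ cells, against 5.93, 6.02 and 6.28 in CD73+CD105- cells, with no overlap. Its difference was 0.48 (SE 0.11, adjusted p = 0.0879), 0.76 in replicate 1 and 0.34 in replicates 2 and 3. Cx3cl1, or fractalkine, stood at 6.81, 6.87 and 6.56 in CD73+CD105+ cells, against 6.67, 6.74 and 6.58 in CD73+CD105- cells, and the difference was 0.08 (95% interval -0.15 to 0.31). Xcl1, the lymphocyte attractant lymphotactin, stood at 5.83, 5.66 and 5.96 in CD73+CD105+ cells, against 5.91, 5.96 and 5.82 in CD73+CD105- cells, overlapping and below the odorant receptor level in every array.

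**Figure D3:**
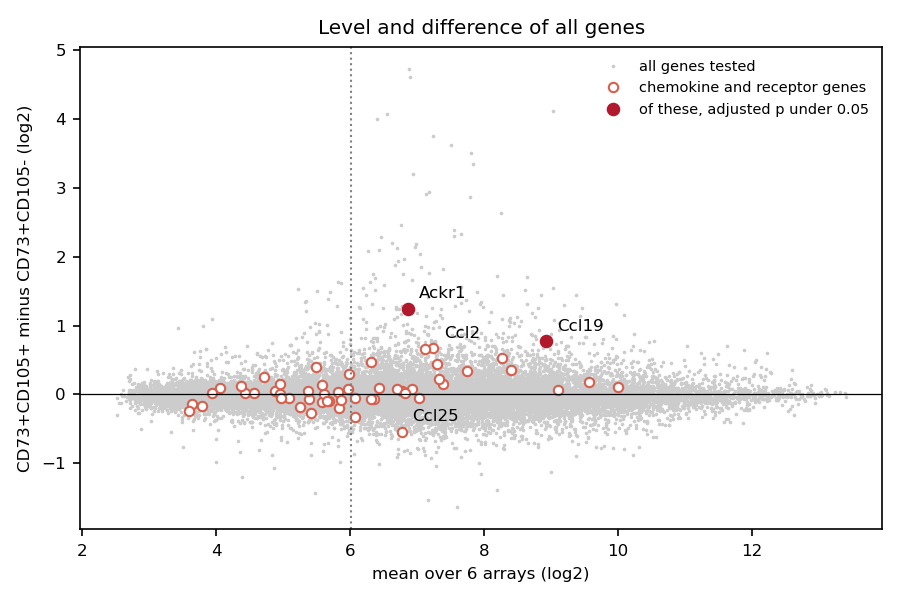
Mean over the 6 arrays (log2, horizontal) against the difference CD73+CD105+ minus CD73+CD105- (log2, vertical) for all 19938 genes (grey) and the 54 chemokine and receptor genes (red circles, filled where the adjusted p was under 0.05). The dotted line marks the odorant receptor level of 6.02, and the 54 genes run from -0.54 (Ccl25) to 1.24 (Ackr1), while the whole array runs from -1.64 to 4.73.

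None of the 17 signalling receptors passed in limma, and 2 had an unadjusted p under 0.05, against 17.7% of all genes. Of 9 CC receptors 7 lay below the odorant receptor level in both fractions, and all 9 differences lay between -0.13 and 0.12, with 0 at an unadjusted p under 0.05 in limma. Ccr10, a receptor for Ccl28, is given as the CC receptor probe set with the highest mean, at 6.79, 7.10 and 7.03 in CD73+CD105+ cells, against 7.07, 6.83 and 6.75 in CD73+CD105- cells. The groups overlapped and the difference was 0.09 (adjusted p = 0.749). Ccr2, the receptor for Ccl2 and Ccl7 on monocytes, averaged 3.95 ± 0.01 in CD73+CD105+ cells and 3.92 ± 0.05 in CD73+CD105- cells, far below the odorant receptor level.

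Of 8 CXC, CX3C and XC receptors 5 lay below the odorant receptor level in both fractions. Cxcr4, the signalling receptor for Cxcl12 on blood stem cells and lymphocytes, stood at 7.61, 7.32 and 7.38 in CD73+CD105+ cells, against 7.04, 6.94 and 7.65 in CD73+CD105- cells. Replicate 3 of CD73+CD105- cells was the highest Cxcr4 array of all 6, the groups overlapped, and the difference of 0.23 had a 95% interval of -0.21 to 0.66. Cx3cr1, the fractalkine receptor of monocytes, averaged 7.01 ± 0.23 in CD73+CD105+ cells and 7.06 ± 0.05 in CD73+CD105- cells, and Cxcr3 6.28 ± 0.18 and 6.34 ± 0.10. The B cell receptor Cxcr5 (0.25) and the neutrophil receptor Cxcr2 (-0.25) had an unadjusted p under 0.05, with both means below the odorant receptor level and adjusted p-values of 0.196 and 0.206.

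Most markers in the pan-leukocyte list and in the monocyte and macrophage list were dim in the same arrays. Of 6 pan-leukocyte genes 5 lay below the odorant receptor level in both fractions, and 0 of the 6 passed in limma (0 also at an unadjusted p under 0.05). The exception, the actin-bundling gene Lcp1, averaged 7.92 ± 0.20 in CD73+CD105+ cells and 8.20 ± 0.55 in CD73+CD105- cells, and the list's summed linear values were 385 to 427 in CD73+CD105+ arrays, against 375 to 618 in CD73+CD105- arrays. Of 9 monocyte and macrophage genes 6 lay below that level, 0 passed in limma (2 at an unadjusted p under 0.05), and their sums were 527 to 575 in CD73+CD105+ and 496 to 521 in CD73+CD105- arrays. The part of such cells in the Ccl2, Ccl7 and Cxcl16 differences was not tested. Lists of 8 neutrophil, 7 B cell, 7 T and NK cell and 6 megakaryocyte genes held 0 past the threshold in limma, and 0, 1, 0 and 1 at an unadjusted p under 0.05. In the same order, 2, 4, 1 and 3 of their genes lay above the odorant receptor level in at least 1 fraction. Of 7 fibroblast genes 1 rose, Cd34 (1.45), a gene also known from endothelium, with 5 higher and 0 lower at an unadjusted p under 0.05 and a median difference of 0.43. Of 8 chondrocyte genes 1 fell, the transcription factor gene Sox6 (-0.56), with 6 lower and 0 higher at an unadjusted p under 0.05, all 8 differences below 0 and a median of -0.36. Of 6 osteoblast genes 0 passed in limma (1 higher and 1 lower at an unadjusted p under 0.05).

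Arrays of the same fraction also differed from each other. Over the 26 genes above the odorant receptor level in at least 1 fraction, CD73+CD105- replicate 3 was the lowest of the 6 arrays 9 times and the highest 2 times. CD73+CD105+ replicate 2 was never the lowest. The largest SDs within a fraction were 0.62 for Cxcl9 in CD73+CD105+ cells and 0.53 for Cxcl2 in CD73+CD105- cells.

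A separate list of 9 genes held chemokines and receptors with other symbols together with attractants outside the chemokine family, such as Mif, and receptors for them. Of these 1 rose, Rarres2, at 10.84 ± 0.17 in CD73+CD105+ cells and 10.08 ± 0.21 in CD73+CD105- cells (difference 0.76, adjusted p = 0.0393). Rarres2 encodes the precursor of chemerin, an attractant that is not itself a chemokine. Its receptor gene Cmklr1 had a difference of 0.30 that did not pass (adjusted p = 0.267). The platelet chemokine genes Pf4 and Ppbp lay below the odorant receptor level in both fractions.

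Of 24 genes that carry the signal of chemokine receptors 0 passed in limma (6 at an unadjusted p under 0.05), with the largest differences in the G protein subunit genes Gnai1 (0.71, adjusted p = 0.231) and Gng11 (0.61, adjusted p = 0.0872). Of 14 genes that end the signal 2 rose and 0 fell. They were Rgs5 (1.72, adjusted p = 0.024) and Rgs16 (0.88, adjusted p = 0.0207), both of which speed the turn-off of G proteins, and Rgs5 is also a pericyte marker. Of the 7 pericyte and smooth muscle markers other than Rgs5, 3 rose (Tagln, Mcam and Abcc9) and 0 fell, with summed linear values of 1872 to 2127 in CD73+CD105+ arrays, against 1523 to 1821 in CD73+CD105- arrays. The pericyte proteoglycan gene Cspg4 lay the other way, with a difference of -0.47 that did not pass (adjusted p = 0.0634). The part of such cells in the Rgs5 difference was not tested.

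Of 19 genes that cleave or present chemokines 1 rose, the protease gene Mmp9, at 7.58 ± 0.32 in CD73+CD105+ cells and 6.40 ± 0.18 in CD73+CD105- cells (difference 1.18, adjusted p = 0.0226). Dpp4, Adam10, Adam17 and the syndecan genes were in that list and did not pass. Of 17 genes of the cytokine, Toll-like receptor, NF-kB and interferon pathways that control chemokine transcription, the inhibitors Nfkbia and Tnfaip3 and the adaptor Myd88 included, 1 rose and 0 fell. It was Tlr4, the receptor for bacterial lipopolysaccharide, at 8.17 ± 0.27 in CD73+CD105+ cells and 7.38 ± 0.13 in CD73+CD105- cells (difference 0.79, adjusted p = 0.0444). The NF-kB subunit gene Rela had a difference of -0.25 that did not pass (adjusted p = 0.137). The median differences of the 5 lists lay between 0.01 and 0.23, against -0.02 over all genes.

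**Figure D4:**
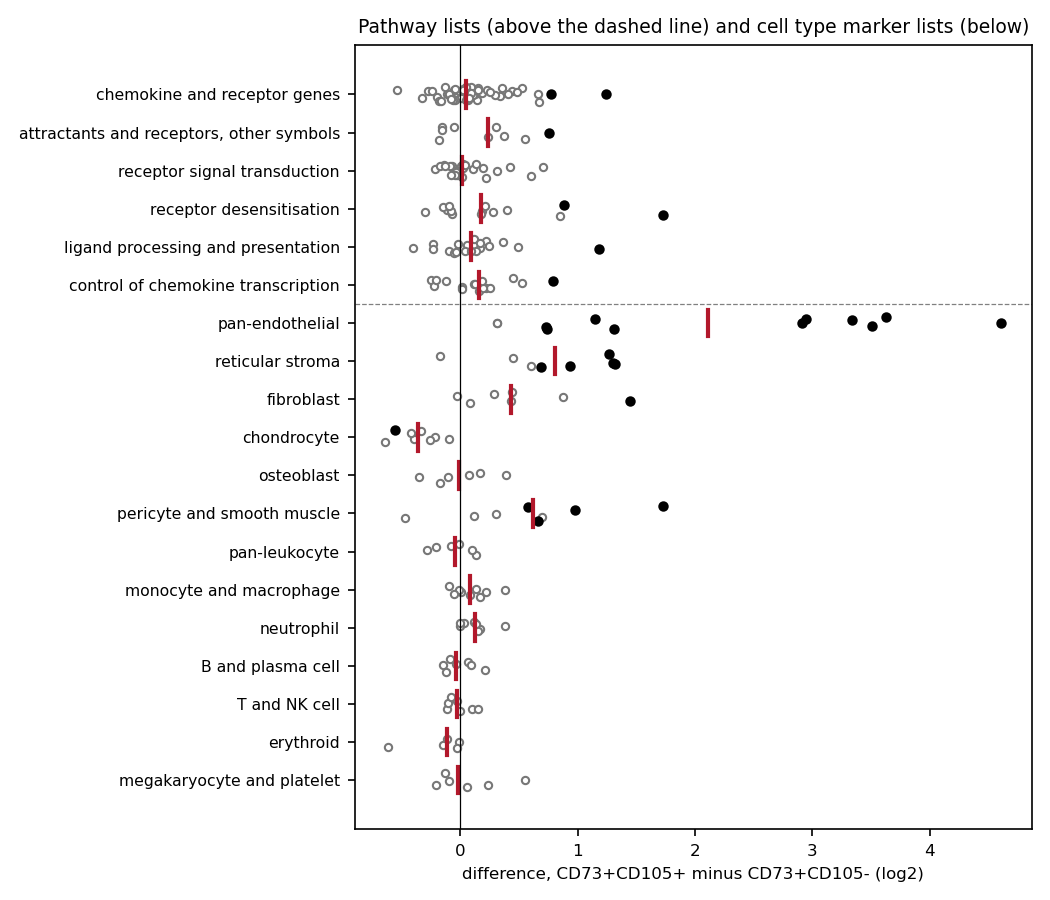
Difference of each gene (CD73+CD105+ minus CD73+CD105-, log2), 1 row per list, with filled points past an adjusted p of 0.05 and a red bar at the list's median. The 54 chemokine and receptor genes centre on 0.04, and among the cell type marker lists below the dashed line the pan-endothelial list lies highest, with a median of 2.11.

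Both genes that rose kept their direction in all 18 other settings tried, while their side of the threshold moved. As their groups did not overlap, leaving out or weighting arrays could not reverse the direction. Some other settings leave the difference unchanged by design, so the kept direction adds no support. The difference of Ccl19 ran from 0.65 to 0.87 and passed in 12 of the 18 settings, and that of Ackr1 ran from 0.95 to 1.48 and passed in 6. Ccl2 ran from 0.51 to 0.79 and passed in 3. The passes of each gene include the set limited by the odorant receptor level, a choice not independent of the difference.

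**Figure D5:**
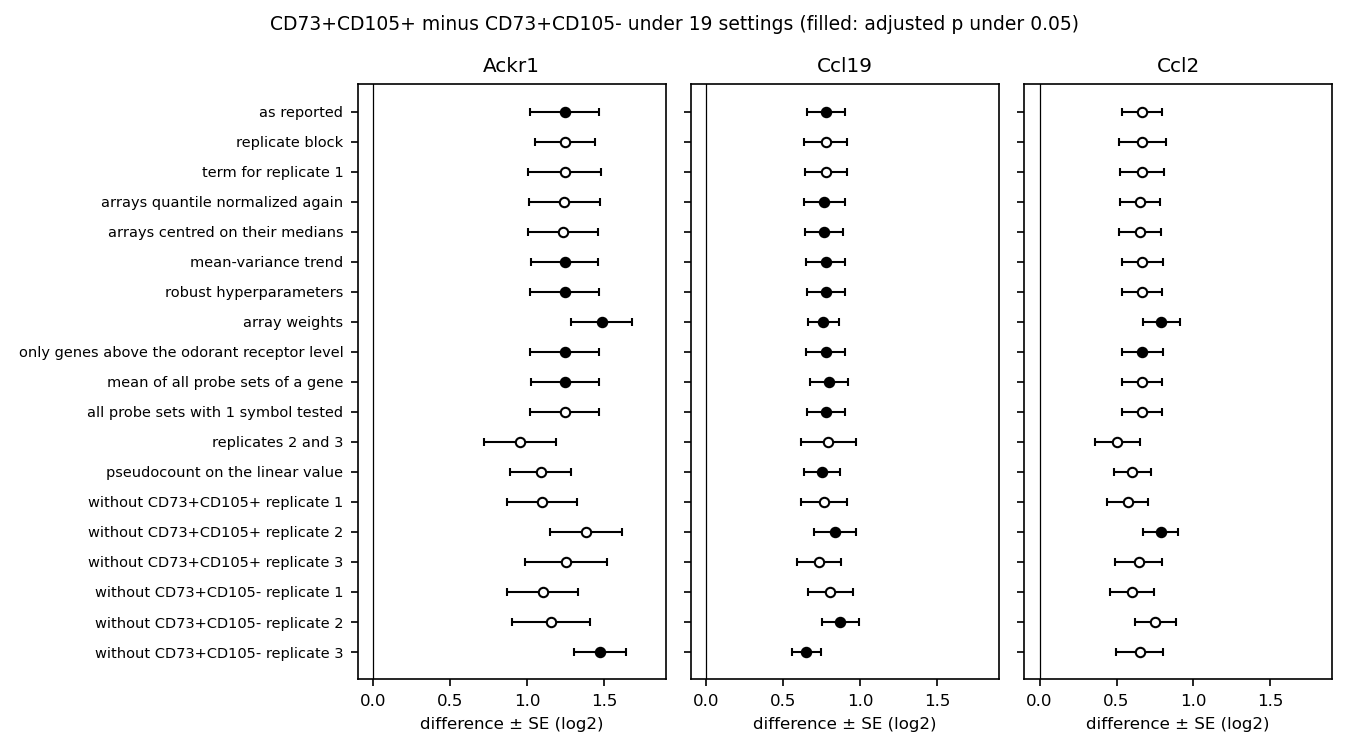
Difference CD73+CD105+ minus CD73+CD105- (log2) ± SE of Ackr1, Ccl19 and Ccl2 as reported and in 18 other settings, 1 row each, filled where the adjusted p was under 0.05. Every point lies above 0, as the groups of these genes do not overlap, and Ccl19 passes in more rows than Ackr1 or Ccl2.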

How the data were processed

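Total RNA of 6 sorted samples was hybridised to arrays, 1 per sample. The deposited values are log2 expression per probe set that the authors made with RMA, per the submitters' processing notes. RMA corrects background, normalizes quantiles and summarises probes, and it compresses differences of dim genes. No software version, probe annotation or genome build is named in the labels or the file. The platform annotation gives 1 symbol to 21789 of the 35556 probe sets, several to 1621 and none to 12146. By Entrez ID 21698 of the 21789 were found in the RefSeq gene table, with 0 changed symbols. Keeping the probe set with the highest mean per gene gave 19938 genes.

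Differences were tested in R 4.3.3 by limma 3.58.1, two-sided, through lmFit and then eBayes, with no block and Benjamini-Hochberg adjustment over all genes. The fit was tested on simulated data. The simulated arrays varied independently and lacked the replicate 1 relation, so that test cannot show whether the p-values hold for these arrays. Same-numbered samples of the 2 fractions were compared through the correlation of their deviations from the group means. It was -0.883, 0.00659 and 0.104 for replicates 1, 2 and 3. The value of replicate 1 restates the relation of its 2 arrays to the other 4, so these correlations cannot settle whether the samples were paired. The labels name no pairs and the main fit used none. With a replicate block or a term for replicate 1, 0 of the 54 genes passed. Alternatives were a replicate block, a term for replicate 1, other scalings, variance models, array weights, probe set rules and left-out arrays. Scanner files were not used here, so no detection calls were made.

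Members described array by array were those past the threshold, those with an unadjusted p under 0.05 and a mean above the odorant receptor level, and the highest of each role list, with other members above that level given where they complete a list. Pathway genes were named if they passed, otherwise the 2 with the largest difference. Pathway and marker genes outside this rule, such as Cmklr1, Rela, Cspg4 and Lcp1, were chosen after their values were seen. The members and lists were chosen with earlier results of these data known.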

Additional observations from a re-analysis of the deposited data

How the results depend on the processing

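As reported, 2 of the 54 genes rose and 0 fell, among 363 of all genes past the threshold. The number that rose was 0 with the replicate block, 0 with the term for replicate 1 and 0 in replicates 2 and 3. It was 1 after quantile normalization again, 1 with arrays centred on their medians, 1 with all probe sets of 1 symbol tested and 1 with a pseudocount of 16 on the linear value, and 5 with array weights. Array weights also gave 1 gene that fell, Ccl25. Leaving out 1 array gave 0 to 2 genes that rose. The counts over all genes were 215 with the replicate block, 101 with the term for replicate 1, 29 in replicates 2 and 3, 1331 with array weights, and 86 to 293 without 1 array. The share of calls that were higher was 74.4% as reported, 88.4% with the block, 94.1% with the term, 96.6% in replicates 2 and 3 and 60.6% with array weights. With the replicate block the adjusted p was 0.0727 for Ccl19 and 0.0507 for Ackr1. Among the 17 genes that the naming rule chose, only Ccr10 changed sign, to -0.053 with array weights. Of the other 2 genes given array by array, Cxcl9 kept its sign, and Cxcl2 ran from -0.216 to 0.364 and kept its sign in 16 of 18 settings. The median difference of all genes was -0.02 as reported and -0.03 with arrays centred on their medians. The causes of these changes were not tested. RMA values give no read depth, and differences of the 28 dim genes may be understated.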
